A study of Mus musculus with 4 samples.

Results

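The lysosome genes described here are 39 genes of mouse bone marrow cells, taken by symbol from the 37681 gene IDs that each count table holds. They are 10 proteases, 9 other hydrolases, 3 genes for cofactors and a lipid carrier, 8 for membrane proteins, 6 for proton pump subunits, the transcription factors Tfeb and Tfe3, and the autophagy receptor Sqstm1. All 39 were found. The rule is a list of symbols with no threshold on any measured value, drawn up with earlier results of these data known.

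Messenger RNA was sequenced from wild-type C57BL/6 bone marrow cells that had been cultured in DMEM containing fetal bovine serum plus L929 supernatant, which supplies M-CSF, a growth factor for macrophages. The 4 groups were cells with shRNA against lncRNA-COX2 given 100 nM Pam3Cys4 for 5 h, cells with that shRNA left unstimulated, cells without shRNA given Pam3Cys4, and cells without shRNA left unstimulated. Each group is 1 library. Pam3Cys4 is a synthetic lipopeptide that activates TLR2, and lncRNA-COX2 is a long noncoding RNA encoded near the cyclooxygenase gene Ptgs2. Titles mark the cells lacking shRNA as EV, an abbreviation left unexplained, so whether they held a control construct is unknown here. Age, sex, the number of mice and whether animals were pooled are not given either.

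Lysosomes are acidic organelles in which hydrolases break down proteins, lipids and glycans, and macrophages use them to digest what they engulf. A proton pump, the V-ATPase, acidifies the lumen, and many of its proteases, the cathepsins, work best at that low pH. TFEB and TFE3 are related helix-loop-helix factors that the kinase complex mTORC1 holds in the cytoplasm. When released to the nucleus they bind short elements, built around CACGTG, in the promoters of many lysosomal genes.

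Such elements were looked for in the RefSeq promoter windows of the members, which run from 250 bases before to 50 bases after a gene's start on GRCm38.p6. Windows were at hand for 32 of the 39 members; Asah1, Atp6v0d2, Atp6v1b2, Atp6v1h, Ctsb, Ctsh and Npc1 had none. CACGTG reads the same on both strands, and it was present in 10 of the 32 genes (31.2%), against 8.09% of the 27025 genes in the table and 12.9% of the 7566 genes that reach 5 CPM, counts scaled to a common library size, in a library. The share among members was 28.1% for the longer TCACGTG, which contains CACGTG and was read on both strands, against 4.29% of all genes in the table and 7.67% of those that reach 5 CPM. These shares are a description, and a match is not evidence of binding. The 10 matches are shown because they are the members whose promoters hold the letters that TFEB and TFE3 are known to bind. Each stretch is 30 bases on the gene's own strand, 5′ to 3′, around the copy nearest the start, with CACGTG in capitals.
Ctsa (chr2:164833766-164833795, plus strand): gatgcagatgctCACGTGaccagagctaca
Ctsd (chr7:142387908-142387937, minus strand): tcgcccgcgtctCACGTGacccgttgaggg
Ctsl (chr13:64370739-64370768, minus strand): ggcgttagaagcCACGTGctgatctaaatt
Lgmn (chr12:102439124-102439153, minus strand): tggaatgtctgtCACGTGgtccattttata
Gaa (chr11:119267811-119267840, plus strand): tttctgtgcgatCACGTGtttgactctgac
Glb1 (chr9:114401018-114401047, plus strand): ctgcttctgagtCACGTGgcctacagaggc
Lamp1 (chr8:13159134-13159163, plus strand): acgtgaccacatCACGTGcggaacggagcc
Mcoln1 (chr8:3500462-3500491, plus strand): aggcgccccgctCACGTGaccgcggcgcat
Atp6v0d1 (chr8:105566050-105566079, minus strand): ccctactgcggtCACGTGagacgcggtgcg
Atp6v1a (chr16:44139373-44139402, minus strand): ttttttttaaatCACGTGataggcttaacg

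In 9 of the 10 stretches the capitals follow a t or precede an a, which makes the longer TCACGTG on one strand or the other; the exception is Ctsl. Lamp1, the gene for a main lysosomal membrane protein, has 4 copies of CACGTG in its window, and Ctsa, Ctsd and Mcoln1 have 2 each. The related letters TCATGTG, which the TFEB relative MITF is known to bind, were present on either strand in 3 members, Ctsa, Ctss and Grn, or 9.38% against 4.31% of all genes in the table and 2.71% of those that reach 5 CPM. The stretches of Ctss and Grn are shown with these letters in capitals, in Grn as the reverse complement, because neither gene has CACGTG.
Ctss (chr3:95526792-95526821, plus strand): attgtggatgctTCATGTGacaagctccga
Grn (chr11:102430285-102430314, plus strand): tgattctctaatCACATGAtccctagaaat

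The windows of Gpnmb and Ctsk are shown whole, with the start base in capitals, because these members were among the farthest apart between cells with and without shRNA and their windows hold none of the 3 motifs.
Gpnmb (chr6:49036268-49036567, plus strand): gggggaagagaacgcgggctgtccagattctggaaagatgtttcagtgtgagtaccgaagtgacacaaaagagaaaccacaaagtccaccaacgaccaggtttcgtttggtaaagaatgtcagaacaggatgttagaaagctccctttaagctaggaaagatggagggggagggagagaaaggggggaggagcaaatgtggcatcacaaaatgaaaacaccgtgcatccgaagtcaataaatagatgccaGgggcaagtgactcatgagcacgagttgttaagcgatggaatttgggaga
Ctsk (chr3:95498960-95499259, plus strand): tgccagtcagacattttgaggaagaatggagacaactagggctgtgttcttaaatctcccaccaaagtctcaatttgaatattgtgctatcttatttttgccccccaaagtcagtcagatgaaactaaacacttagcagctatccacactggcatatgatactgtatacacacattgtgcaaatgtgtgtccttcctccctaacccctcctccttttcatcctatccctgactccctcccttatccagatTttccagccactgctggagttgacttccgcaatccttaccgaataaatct

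Gene reads numbered 59400238 and 65826838 with shRNA, after Pam3Cys4 and unstimulated, and 51979051 and 47385277 without shRNA. With 1 library per group, a ratio carries an exact 95% interval for counting error only, with no replicate check. A gene is called higher or lower in a pair of libraries when its TMM-scaled counts are at least 2-fold apart, the interval excludes 1 and the higher library has at least 5 CPM. The one test is an edgeR quasi-likelihood fit of shRNA plus stimulation over 9559 genes with Benjamini-Hochberg adjustment, in which the other factor stands in as the repeat; rose and fell below mean an adjusted p under 0.05 in it. Its p-values do not cover the spread between separately prepared cultures. Scaling by library totals alone moved the median log2 ratio of all genes to -0.12 and -0.19 for stimulation with and without shRNA, and to -0.10 unstimulated and -0.03 after Pam3Cys4 for shRNA, so changes below are relative to the TMM scaling. The split of calls over all genes moved with it, to 494 higher and 466 lower against 605 and 339 for stimulation with shRNA, and to 541 and 898 against 676 and 622 without. In the edgeR test the library totals gave 964 that rose and 2045 that fell with Pam3Cys4, against 1138 and 1045, and 1049 and 1265 with shRNA, against 1171 and 828.

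The 16 macrophage markers summed to 10262 and 7748 CPM with shRNA, after Pam3Cys4 and unstimulated, and to 10031 and 6787 CPM without, and Csf1r, Lyz2, Spi1 and Cd68, itself a member, made up most of each sum. Not all were high: Cd163 and Marco had at most 9 and 31 counts in any library, and Aif1 had 5.12 and 3.77 CPM with shRNA and 2.34 and 2.11 CPM without. Mrc1 had 3.17 and 5.15 CPM with shRNA against 50.5 and 89.8 CPM without, while Mertk had 8.02 and 38.8 CPM against 1.09 and 4.91 CPM. Elane, Ltf, Ngp, S100a9 and Ly6g of the 11 granulocyte markers, and Cd3e, Cd3d, Cd8a and Ncr1 of the 8 T or NK cell markers had 0 counts in all 4 libraries. The 9 dendritic cell markers summed to 4.03 and 3.53 CPM with shRNA against 28.3 and 11.2 CPM without, and the T or NK list, through Il7r and Lck, to 21.3 and 18.5 CPM against 3.01 and 2.38 CPM. Some Y-linked genes also differ along the shRNA groups: Ddx3y had 1116 and 921 counts with shRNA and 4 and 3 without, and Kdm5d had 665 and 730 with shRNA and 1 and 0 without. Uty ran the same way, but Y-linked Eif2s3y had 0 and 0 counts with shRNA and 6 and 3 without. Xist, read from the X chromosome in female cells, had at most 2 counts in any library. The source of the cells and the shRNA therefore cannot be told apart in any shRNA ratio below. In such bulk samples, fewer cells of a type and less RNA per cell cannot be told apart either. The targeted lncRNA is not analysed here.

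The lysosome genes held a larger part of the reads in the cells with shRNA. Their 39 counts made up 3.94% and 4.88% of gene reads with shRNA, after Pam3Cys4 and unstimulated, and 2.91% and 3.04% without shRNA. Gpnmb, a glycoprotein of endosomes and lysosomes, alone took 0.515% and 0.736% with shRNA against 0.106% and 0.14% without. Without Gpnmb the shares were 3.42% and 4.14% with shRNA against 2.81% and 2.9% without, so the order of the libraries did not hang on that gene. The proteases held 1.77% and 2.16% with shRNA and 1.44% and 1.42% without, while the proton pump subunits held 0.128% and 0.148% with shRNA and 0.135% and 0.137% without.

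**Figure D1:**
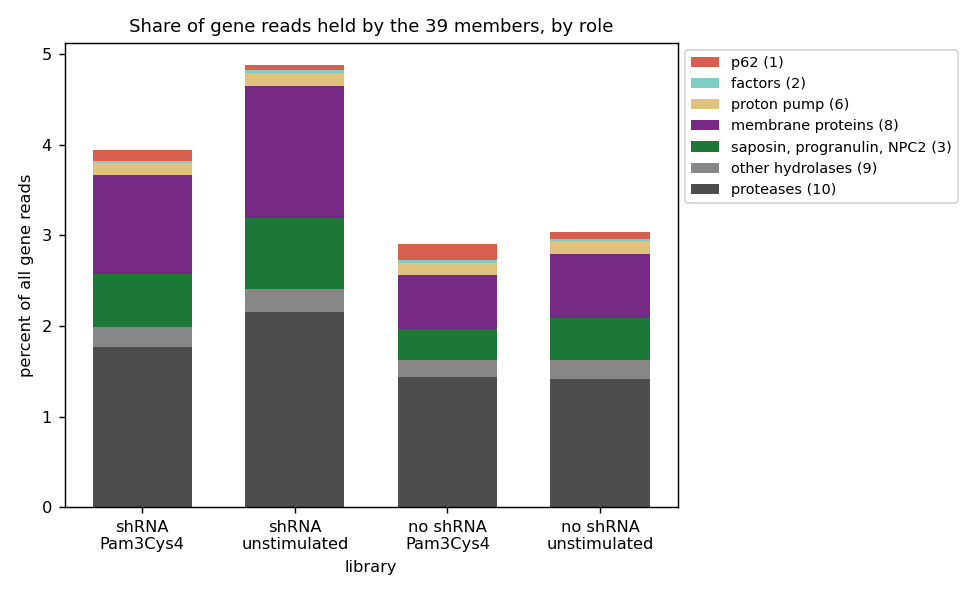
Percent of all gene reads held by the 39 members in each of the 4 libraries, stacked by role, with the number of genes per role in the legend. The totals are 3.94% and 4.88% with shRNA and 2.91% and 3.04% without, and the membrane proteins and proteases make up most of the gap.

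With shRNA, members were higher more often than lower. In unstimulated cells 6 of 39 were called higher (7% of all genes measured) and 1 was called lower (4.82%); after Pam3Cys4 7 of 39 were higher (9%) and 1 was lower (5.58%). The 6 were Ctsk, Ctss, Npc2, Psap, Gpnmb and Atp6v0d2 in both states, joined after Pam3Cys4 by Lipa, and the 1 was Ctsh. The median log2 ratio of members was 0.28 unstimulated and 0.21 after Pam3Cys4, against 0.02 and 0.05 for all genes measured. In the edgeR test 10 of 39 members rose with shRNA (12.3% of all genes) and 2 fell (8.66%): Ctsb, Ctsk, Ctss, Glb1, Lipa, Npc2, Psap, Cd68, Gpnmb and Atp6v0d2 rose, and Ctsh and Atp6v1h fell. The log2 ratio was positive in both states for 26 members and negative in both for 6, or 24 and 10 with library totals and 25 and 6 with DESeq2 size factors. State by state it was positive for 84.6% of members unstimulated and 66.7% after Pam3Cys4, against 52.6% and 54.2% of all genes measured. The share of all genes with the same sign in both states was not counted.

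**Figure D2:**
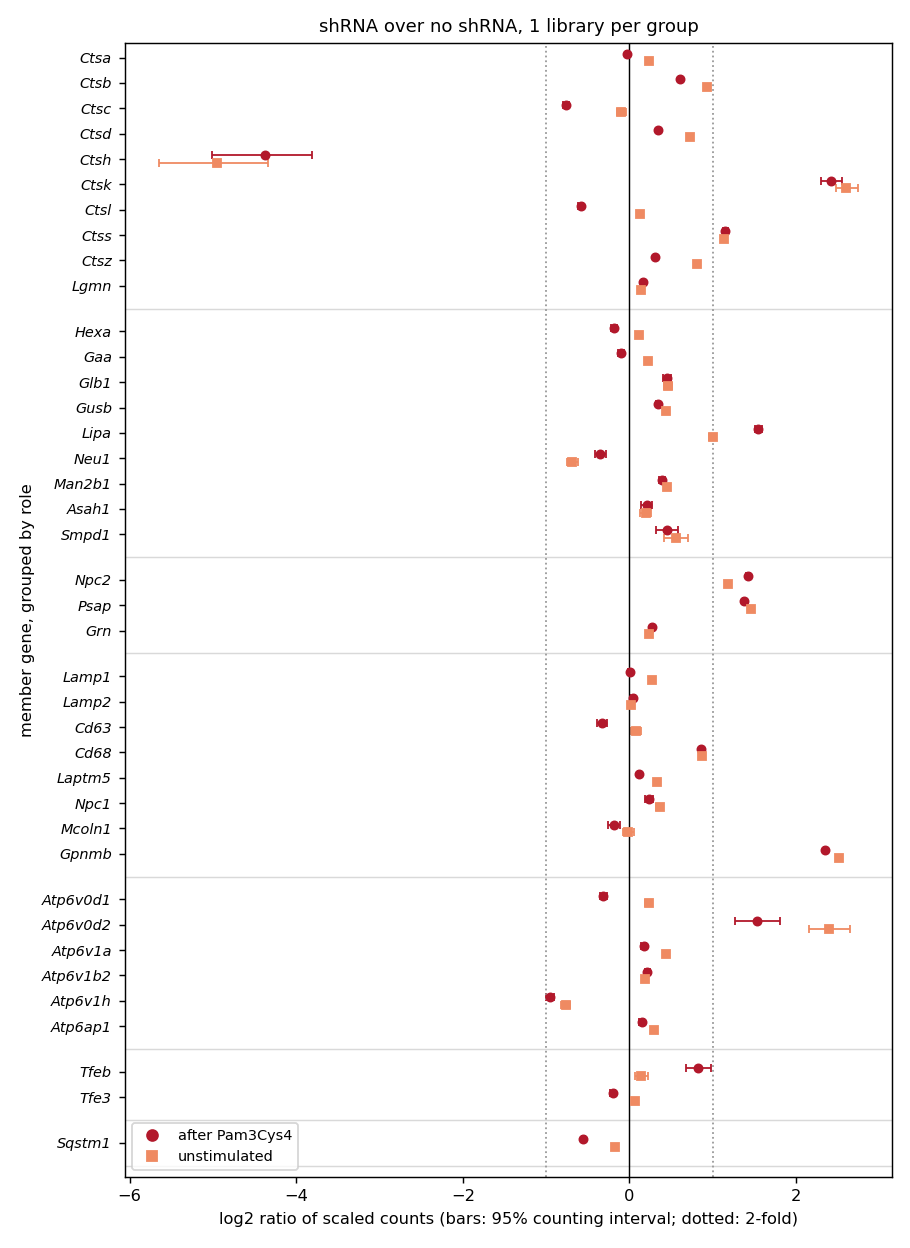
Log2 ratio of scaled counts, shRNA over no shRNA, for each member after Pam3Cys4 (circles) and unstimulated (squares), grouped by role, with 95% counting intervals and dotted lines at 2-fold. Ctsh stands far to the left and Ctsk, Gpnmb and Atp6v0d2 to the right in both states, while most members lie within 2-fold.

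For Pam3Cys4 the shares of members called were no higher than those of all genes. In cells with shRNA 2 of 38 measured members were higher after Pam3Cys4 (6.3% of all genes measured) and 1 was lower (3.53%), and in cells without shRNA 2 of 38 were higher (7.07%) and 1 was lower (6.51%). Ctsc and Sqstm1 were higher and Tfeb was lower in both, but with library totals or DESeq2 size factors Sqstm1 was not called with shRNA, which left 1 member higher there. The member median log2 ratio was -0.03 with shRNA and 0.11 without, against 0.02 and -0.0008 for all genes measured, and it was -0.16 and -0.07 with library totals, which turns the sign without shRNA. In the edgeR test 3 of 39 members rose with Pam3Cys4 (11.9% of all genes), Ctsc, Tfe3 and Sqstm1, and 4 fell (10.9%), Tfeb, Lgmn, Man2b1 and Psap. With library totals 3 members rose and 7 fell, where 964 and 2045 of the 9559 genes tested did.

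**Figure D3:**
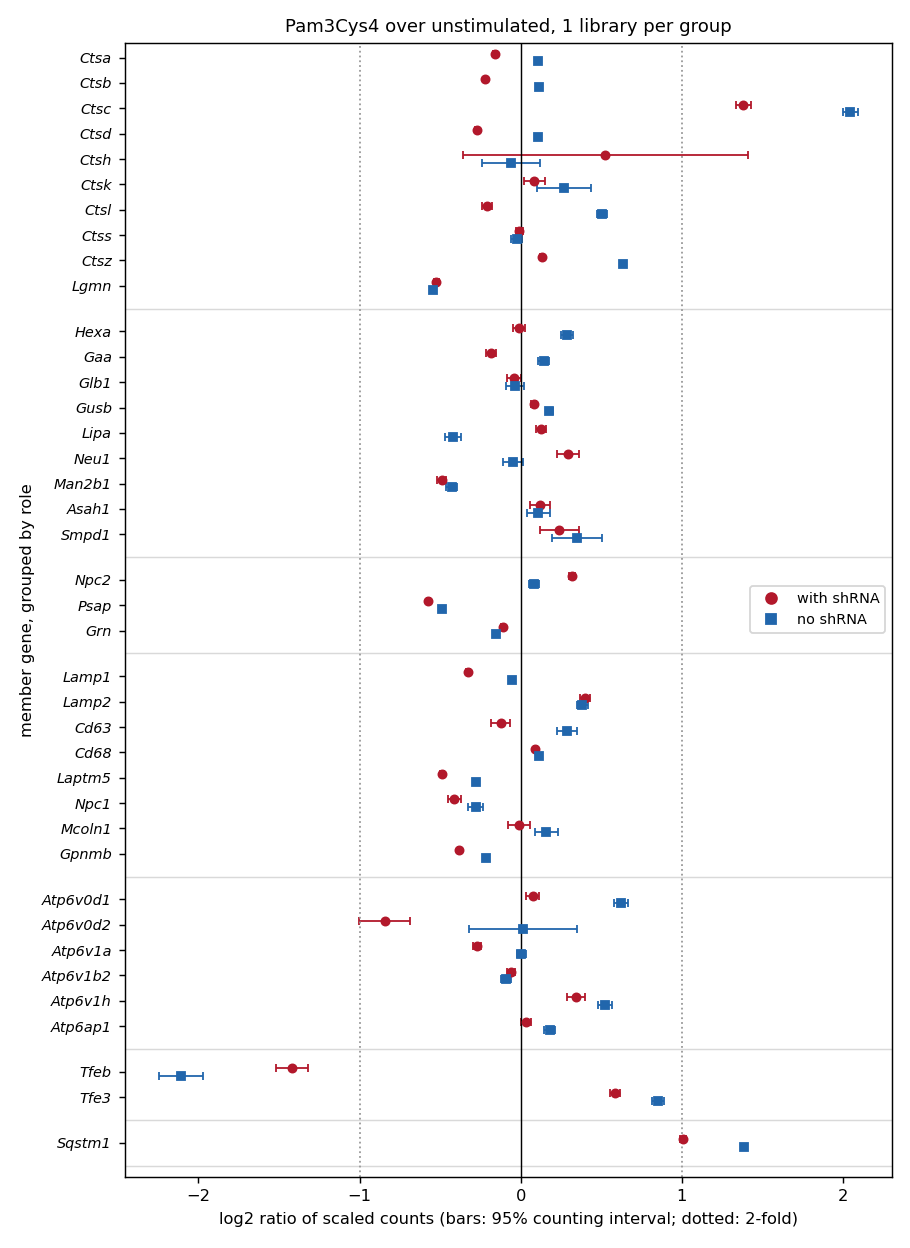
Log2 ratio of scaled counts, Pam3Cys4 over unstimulated, for each member with shRNA (circles) and without (squares), grouped by role, with 95% counting intervals and dotted lines at 2-fold. Tfeb lies beyond 2-fold on the left and Ctsc and Sqstm1 beyond it on the right, the last with shRNA at 2.01-fold.

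The 2 factors moved in opposite directions with Pam3Cys4. Tfeb (ENSMUSG00000023990), a main activator of lysosomal genes, had 1069 and 3473 counts with shRNA, after Pam3Cys4 and unstimulated, and 554 and 2461 counts without shRNA, or 19.5 and 52.1 CPM against 10.97 and 47.2 CPM. Both stimulated libraries were low and both unstimulated ones high. Tfeb was 2.68-fold lower after Pam3Cys4 with shRNA (95% interval 2.50 to 2.87) and 4.31-fold lower without (3.92 to 4.73), and it fell by 1.76 ± 0.21 (SE) on the log2 scale (edgeR adjusted p = 0.0108). The stimulation ratio with shRNA was 1.61 times that without (1.43 to 1.804), short of 2-fold and not tested beyond counting error.

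Tfe3 (ENSMUSG00000000134), which can stand in for TFEB at many promoters, had 303 and 202 CPM with shRNA, after Pam3Cys4 and unstimulated, and 348 and 193 CPM without. Here both stimulated libraries were the high ones, by 1.501-fold with shRNA and 1.81-fold without, and the gene rose with Pam3Cys4 by 0.72 ± 0.13 on the log2 scale (edgeR adjusted p = 0.0236). Per kilobase of exon, the level of Tfe3 was 9.53 and 2.37 times that of Tfeb with shRNA, after Pam3Cys4 and unstimulated, and 19.4 and 2.50 times without. Neither factor passed the edgeR test for shRNA, with adjusted p of 0.163 for Tfeb and 0.731 for Tfe3.

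The 2 other relatives, Mitf and Tfec, belong to a list of 24 genes for factor relatives and mTORC1 control. Mitf, best known from melanocytes and osteoclasts, had 275 and 239 CPM with shRNA, after Pam3Cys4 and unstimulated, and 62.3 and 62.2 CPM without. Both libraries with shRNA were high, 4.41-fold after Pam3Cys4 (4.24 to 4.58) and 3.84-fold unstimulated (3.70 to 3.99), and Mitf rose with shRNA by 2.04 ± 0.12 on the log2 scale (edgeR adjusted p = 0.00105). Per kilobase the Mitf level exceeded that of Tfe3 with shRNA, by 1.35 and 1.77 times, and was 0.268 and 0.482 times it without. Tfec had 352 and 202 counts with shRNA, after Pam3Cys4 and unstimulated, and 184 and 35 without, and with shRNA was 2.12-fold higher after Pam3Cys4 (1.77 to 2.53). Without shRNA it was 5.43-fold higher (3.76 to 8.03), which is not called because the higher library had 3.64 CPM, under the minimum. The stimulation ratio of Tfec with shRNA was 0.39 times that without (0.26 to 0.58), called lower but not tested beyond counting error. Of the 20 list genes tested by edgeR, 3 rose and 5 fell with shRNA, where 12.3% and 8.66% of all genes did, and 1 rose and 2 fell with Pam3Cys4, where 11.9% and 10.9% did. These counts are too small to set apart from those shares. Flcn and Lamtor4, which act in the recruitment and control of mTORC1 at the lysosome, were among the fallen for shRNA and were the 2 for Pam3Cys4. Rraga of the same list was the 1 that rose with Pam3Cys4, by 0.61 ± 0.14 on the log2 scale, and was among the fallen for shRNA. Fnip2 and Depdc5 rose with shRNA, by 0.69 ± 0.16 and 0.67 ± 0.14.

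Sqstm1 (ENSMUSG00000015837) encodes p62, which carries ubiquitin-tagged cargo to the autophagosome. Its levels were 1233 and 614 CPM with shRNA, after Pam3Cys4 and unstimulated, and 1807 and 692 CPM without. Both stimulated libraries were above both unstimulated ones, by 2.01-fold with shRNA (1.98 to 2.03) and 2.61-fold without (2.58 to 2.64), and Sqstm1 rose with Pam3Cys4 by 1.20 ± 0.15 on the log2 scale (edgeR adjusted p = 0.0117). The first ratio sits at the threshold: its log2 was 1.01 with TMM scaling, 0.88 with library totals and 0.99 with DESeq2 size factors. In GENCODE vM21, 17.3% of its exon bases overlap Mrnip, and the strand setting of the counting is not given in the sources used here. Of the 29 autophagy genes tested by edgeR, 3 rose and 5 fell with Pam3Cys4, against 11.9% and 10.9% of all genes. The count that rose is near that share, and the count that fell is too small to set apart from it. Among the fallen were Ulk1, the kinase that starts autophagy, at -0.86 ± 0.16 on the log2 scale, and Map1lc3b, whose product coats the autophagosome, at -0.75 ± 0.16. Among the risen was Vmp1, at 0.80 ± 0.16.

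**Figure D4:**
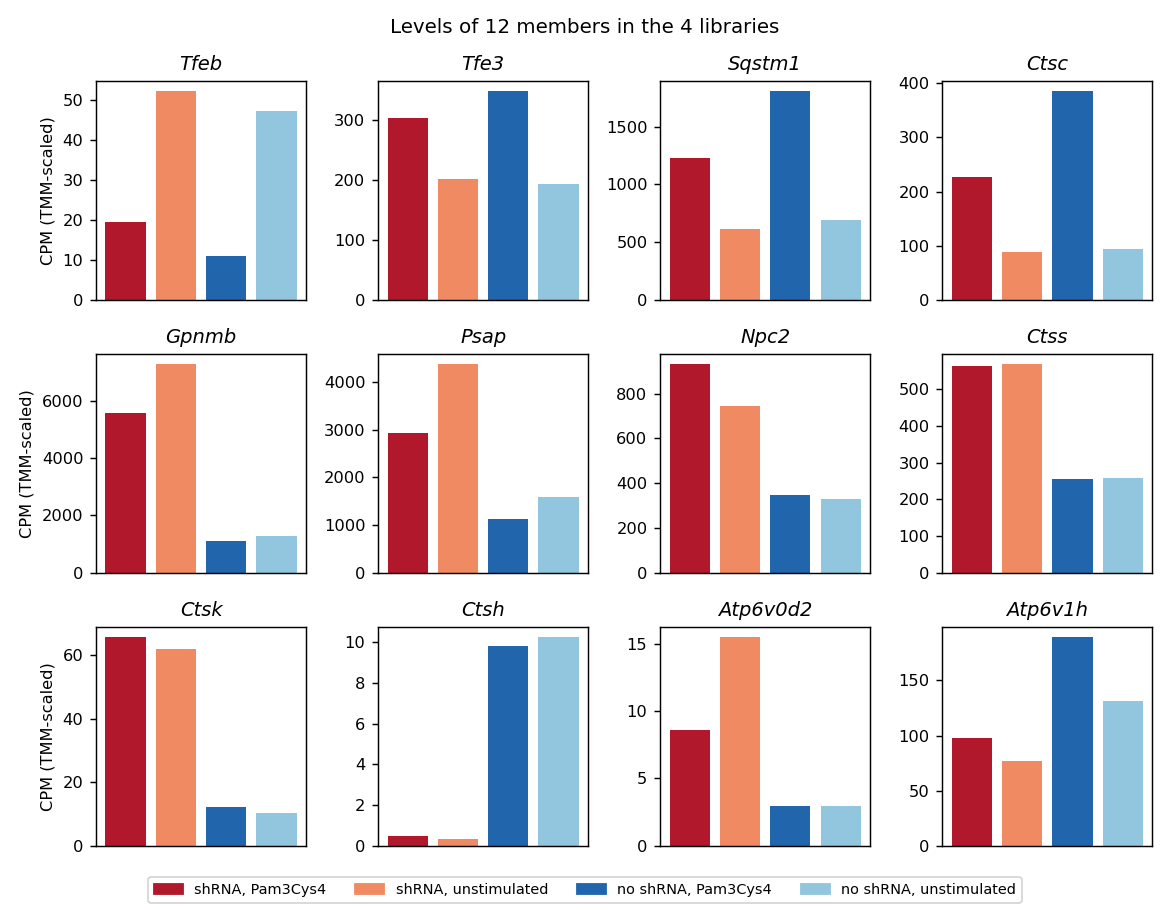
TMM-scaled CPM of 12 members in each of the 4 libraries, on linear axes that start at 0 and differ between panels, with 1 bar per library and no error bar. Tfeb is low and Tfe3, Sqstm1 and Ctsc are high after Pam3Cys4, whereas Gpnmb, Psap, Npc2, Ctss, Ctsk and Atp6v0d2 are high, and Ctsh and Atp6v1h low, with shRNA.

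Among the 10 proteases, 3 rose and 1 fell with shRNA (12.3% and 8.66% of all genes), and 1 rose and 1 fell with Pam3Cys4 (11.9% and 10.9%), which is near the share over all genes. Ctsk (ENSMUSG00000028111) encodes cathepsin K, the collagen-degrading protease by which osteoclasts resorb bone. It had 3605 and 4124 counts with shRNA, after Pam3Cys4 and unstimulated, and 619 and 530 without. Both libraries with shRNA were high, 5.36-fold after Pam3Cys4 (4.92 to 5.85) and 6.09-fold unstimulated (5.56 to 6.68), and the gene rose with shRNA by 2.51 ± 0.14 on the log2 scale (edgeR adjusted p = 0.00085).

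Ctsh (ENSMUSG00000032359) ran the other way. Cathepsin H, an aminopeptidase, had 26 and 22 counts with shRNA, after Pam3Cys4 and unstimulated, and 497 and 534 without. Reads were nearly absent from both libraries with shRNA, 20.8-fold lower after Pam3Cys4 (14.0 to 32.1) and 31.0-fold lower unstimulated (20.3 to 49.9), and Ctsh fell by 4.65 ± 0.26 on the log2 scale with shRNA (edgeR adjusted p = 0.000875). The dendritic cell list was also lower with shRNA, mostly through Itgax with 89 and 17 counts with shRNA against 1254 and 246 without. The granulocyte list was lower through Cebpe alone, with 6 and 10 counts with shRNA against 444 and 412 without. Its markers Camp, S100a8 and Prtn3 had more counts with shRNA in both states, but at most 28. The part of these lists in the Ctsh values was not tested.

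Ctss, the cathepsin that trims the invariant chain of MHC class II, had 564 and 567 CPM with shRNA, after Pam3Cys4 and unstimulated, and 254 and 259 CPM without. The libraries with shRNA were 2.22-fold (2.17 to 2.26) and 2.19-fold (2.15 to 2.24) higher, and Pam3Cys4 ratios were 0.99 with shRNA and 0.98 without. Ctsb, a cysteine protease and by read count the most abundant member, had 7270 and 8458 CPM with shRNA and 4786 and 4424 CPM without, and rose with shRNA by 0.77 ± 0.15 on the log2 scale (edgeR adjusted p = 0.0281) though under 2-fold in both states.

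Ctsc, which encodes the dipeptidyl peptidase that activates serine proteases of granules, was the one protease called after Pam3Cys4. Its levels were 228 and 87.3 CPM with shRNA, after Pam3Cys4 and unstimulated, and 385 and 93.3 CPM without. Both stimulated libraries were high, 2.61-fold with shRNA (2.53 to 2.69) and 4.13-fold without (4.001 to 4.26), and Ctsc rose with Pam3Cys4 by 1.71 ± 0.19 on the log2 scale (edgeR adjusted p = 0.0102). Lgmn, which encodes the asparagine-specific protease legumain, had 1139 and 1636 CPM with shRNA and 1017 and 1481 CPM without, and fell by 0.53 ± 0.12 on the log2 scale with Pam3Cys4 (edgeR adjusted p = 0.0382).

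The other proteases passed neither test in either direction. Ctsz, a carboxypeptidase, had the highest level per kilobase of all members in every library, 3075 and 2810 CPM per kb with shRNA, after Pam3Cys4 and unstimulated, and 2482 and 1601 CPM per kb without. Its stimulation log2 ratios were 0.13 with shRNA and 0.63 without. Ctsd, the main aspartic protease, had 3896 and 4706 CPM with shRNA and 3063 and 2845 CPM without, with an edgeR adjusted p of 0.0701 for shRNA; 34.4% of its exon bases overlap a GENCODE vM21 gene model that the tables do not count. Ctsl, another cysteine protease, had stimulation log2 ratios of -0.21 with shRNA and 0.51 without. Ctsa, which also protects other hydrolases, had shRNA log2 ratios of -0.03 after Pam3Cys4 and 0.24 unstimulated.

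Of the 9 other hydrolases, 2 rose with shRNA (12.3% of all genes) and 1 fell with Pam3Cys4 (10.9%), counts too small to set apart from those shares. Lipa encodes lysosomal acid lipase, which frees cholesterol and fatty acids from engulfed lipoproteins. It had 315 and 289 CPM with shRNA, after Pam3Cys4 and unstimulated, and 108 and 145 CPM without. Both libraries with shRNA were high, 2.92-fold after Pam3Cys4 (2.83 to 3.01) and 1.997-fold unstimulated (1.94 to 2.05), the second just short of the threshold, and Lipa rose with shRNA by 1.27 ± 0.17 on the log2 scale (edgeR adjusted p = 0.0103). Glb1, a galactosidase, had 135 and 139 CPM with shRNA and 98.6 and 101 CPM without, and passed the edgeR test for shRNA narrowly (0.46 ± 0.11, adjusted p = 0.0495), which it did not with library totals or in DESeq2.

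Man2b1, a mannosidase, had 336 and 472 CPM with shRNA, after Pam3Cys4 and unstimulated, and 256 and 344 CPM without, and fell by 0.46 ± 0.11 on the log2 scale with Pam3Cys4 (edgeR adjusted p = 0.0473). The remaining hydrolases, which passed neither edgeR test, were the hexosaminidase subunit Hexa, the glucosidase Gaa, the glucuronidase Gusb, the sialidase Neu1, the ceramidase Asah1 and the sphingomyelinase Smpd1. Neu1 was the only one of the 9 with negative shRNA log2 ratios in both states, -0.35 after Pam3Cys4 and -0.69 unstimulated. Smpd1 had the lowest level per kilobase of the 9 in all 4 libraries, 6.19 and 5.24 CPM per kb with shRNA and 4.52 and 3.55 CPM per kb without.

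Of the cofactor and lipid carrier genes, Psap and Npc2 rose with shRNA and Grn did not pass. Psap encodes prosaposin, the precursor of the saposins that present sphingolipids to their hydrolases. Levels were 2932 and 4364 CPM with shRNA, after Pam3Cys4 and unstimulated, and 1132 and 1589 CPM without. Each library with shRNA exceeded both without it, by 2.59-fold after Pam3Cys4 (2.57 to 2.62) and 2.75-fold unstimulated (2.73 to 2.77), while each stimulated library was below its unstimulated one. Psap was the one member that passed for both factors in opposite directions, with shRNA at 1.42 ± 0.13 (edgeR adjusted p = 0.00292) and with Pam3Cys4 at -0.53 ± 0.12 (edgeR adjusted p = 0.0424) on the log2 scale.

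Npc2, the soluble cholesterol carrier of the lysosome lumen, had 930 and 747 CPM with shRNA and 346 and 327 CPM without. The libraries with shRNA were 2.69-fold (2.64 to 2.73) and 2.28-fold (2.24 to 2.32) higher, after Pam3Cys4 and unstimulated. Grn, whose product progranulin is cut into granulins in the lysosome, had 2468 and 2667 CPM with shRNA and 2044 and 2270 CPM without, with an edgeR adjusted p of 0.204 for shRNA.

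Gpnmb (ENSMUSG00000029816) stood apart among the 8 membrane genes. It had 305887 and 484378 counts with shRNA, after Pam3Cys4 and unstimulated, and 55196 and 66137 without. Both libraries with shRNA were high, 5.10-fold after Pam3Cys4 (5.05 to 5.15) and 5.73-fold unstimulated (5.68 to 5.78), and it rose with shRNA by 2.43 ± 0.14 on the log2 scale (edgeR adjusted p = 0.000894). By CPM per kb it ranked 36th and 21st among 32642 genes with shRNA, and 267th and 167th without.

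Cd68, a macrophage sialomucin of late endosomes, had 2367 and 2221 CPM with shRNA and 1308 and 1210 CPM without, and rose with shRNA by 0.87 ± 0.12 on the log2 scale (edgeR adjusted p = 0.0115). The other 6 passed for neither factor. Lamp1 and Lamp2 line the lysosomal membrane; their shRNA log2 ratios were 0.0017 and 0.04 after Pam3Cys4 and 0.28 and 0.02 unstimulated. Lamp2 had stimulation log2 ratios of 0.40 with shRNA and 0.38 without (edgeR adjusted p = 0.0648), and Laptm5 had -0.49 and -0.28 (edgeR adjusted p = 0.0897). Npc1, the membrane partner of NPC2 in cholesterol export, had shRNA log2 ratios of 0.23 after Pam3Cys4 and 0.36 unstimulated, and Mcoln1, a lysosomal calcium channel, had -0.18 and -0.01. The tetraspanin gene Cd63 has a named pseudogene and so may be undercounted; its stimulation log2 ratios were -0.12 with shRNA and 0.29 without.

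Of the 6 proton pump genes, 1 rose and 1 fell with shRNA, a count too small to set apart from the 12.3% and 8.66% of all genes. Atp6v0d2 (ENSMUSG00000028238) encodes the d2 form of a membrane-domain subunit, known from osteoclasts, where it is needed for cell fusion. It had 473 and 1030 counts with shRNA, after Pam3Cys4 and unstimulated, and 150 and 153 without. The libraries with shRNA were 2.90-fold (2.41 to 3.51) and 5.27-fold (4.44 to 6.28) higher, and the gene rose by 1.97 ± 0.27 on the log2 scale (edgeR adjusted p = 0.0106). Its level stayed far under that of the common form Atp6v0d1, which per kilobase was 31.3 and 16.6 times as high with shRNA and 113 and 74.2 times as high without.

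Ctsk and Atp6v0d2 are 2 of 10 osteoclast markers, and the other 8 summed to 261 and 180 CPM with shRNA, after Pam3Cys4 and unstimulated, and 189 and 173 CPM without. Mmp9 and Nfatc1 made up most of these sums. Nfatc1 was higher with shRNA, at 80.4 and 149 CPM against 35.2 and 115 CPM without. Mmp9 had 173 and 24.9 CPM with shRNA against 117 and 25.1 CPM. Others were lower: Dcstamp, needed for osteoclast fusion, had 41 and 30 counts with shRNA against 1054 and 823 without. The integrin gene Itgb3 had 16 and 47 counts against 275 and 394. Calcr, the calcitonin receptor gene, had 1 and 0 counts with shRNA and 0 and 0 without. The list therefore did not move together, and its part in the values of Ctsk and Atp6v0d2 was not tested.

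Atp6v1h, a subunit that couples the catalytic and membrane domains of the pump, was lower with shRNA. It had 98.1 and 77.3 CPM with shRNA, after Pam3Cys4 and unstimulated, and 189 and 132 CPM without, 1.93-fold (1.87 to 1.995) and 1.70-fold (1.64 to 1.76) lower, and fell by 0.86 ± 0.12 on the log2 scale with shRNA (edgeR adjusted p = 0.0114). The other subunits, Atp6v0d1, Atp6v1a, Atp6v1b2 and Atp6ap1, passed for neither factor. Their shRNA log2 ratios ran between -0.31 and 0.21 after Pam3Cys4 and between 0.19 and 0.44 unstimulated.

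Between cells with and without shRNA, related genes were called higher or lower about as often as all genes. Across 7 lists of 168 further lysosomal, autophagy, sorting and control genes, chosen by name, 11 of 142 measured genes were higher with shRNA (7% of all genes measured) and 7 lower (4.82%) in unstimulated cells, and 11 of 141 were higher (9%) and 10 lower (5.58%) after Pam3Cys4. With Pam3Cys4 a smaller share was called higher, 2 of 140 with shRNA (6.3% of all genes measured) and 5 of 142 without (7.07%). Those called lower with Pam3Cys4 numbered 4 with shRNA (3.53%) and 7 without (6.51%). The genes named from these lists are among those with the largest ratios in either direction of their list. Igf2r, the mannose 6-phosphate receptor that delivers new hydrolases to the lysosome, had 556 and 506 CPM with shRNA, after Pam3Cys4 and unstimulated, and 73.0 and 47.8 CPM without. That is 7.63-fold (7.37 to 7.89) and 10.6-fold (10.2 to 11.02) higher, and Igf2r rose with shRNA by 3.17 ± 0.17 on the log2 scale (edgeR adjusted p = 0.000819). M6pr, the other receptor of this kind, had shRNA ratios of 1.00 and 1.03, and rose with Pam3Cys4 by 0.63 ± 0.11 on the log2 scale (edgeR adjusted p = 0.0233).

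Among 32 further hydrolases tested by edgeR, 10 rose and 4 fell with shRNA (12.3% and 8.66% of all genes), and 3 rose and 4 fell with Pam3Cys4 (11.9% and 10.9%), the Pam3Cys4 counts being near those shares. Sgsh, the heparan sulfamidase, had 19.2 and 91.9 CPM with shRNA, after Pam3Cys4 and unstimulated, and 6.18 and 37.8 CPM without, so both stimulated libraries were low and the libraries with shRNA high at each state. It rose with shRNA by 1.45 ± 0.15 (edgeR adjusted p = 0.00474) and fell by 2.43 ± 0.15 with Pam3Cys4 (edgeR adjusted p = 0.00358) on the log2 scale. Ctsf, a cathepsin, had 14.8 and 19.5 CPM with shRNA and 61.98 and 74.6 CPM without, 4.19-fold and 3.83-fold lower, and fell in the edgeR test for shRNA (adjusted p = 0.00121). The sulfatase gene Arsb and the acetyltransferase gene Hgsnat also fell with shRNA, by 1.56 each.

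Among 20 further membrane genes tested, 7 rose and 1 fell with shRNA (12.3% and 8.66% of all genes), and 5 rose and 4 fell with Pam3Cys4 (11.9% and 10.9%). Scarb2, the receptor that carries glucocerebrosidase to the lysosome, and Tpcn1, a lysosomal cation channel, rose with shRNA by 1.46 ± 0.14 and 1.40 ± 0.15 on the log2 scale (edgeR adjusted p = 0.00409 and 0.00521). Slc11a1, a metal transporter gene of phagosomes, was the 1 that fell: it had 182 and 50.4 CPM with shRNA, after Pam3Cys4 and unstimulated, and 383 and 132 CPM without. Of 12 further pump subunits tested, Tcirg1, the a3 form known from osteoclasts, rose with shRNA by 1.07 ± 0.12 on the log2 scale (edgeR adjusted p = 0.00577), and Atp6v0a1, the a1 form, fell by 0.91 ± 0.18 (edgeR adjusted p = 0.0305). Atp6v0c had 324 and 400 CPM with shRNA and 802 and 422 CPM without. Of the 4 inhibitors of cysteine proteases tested, Cst3, which encodes cystatin C, fell by 0.79 ± 0.14 with shRNA (edgeR adjusted p = 0.0224) and with Pam3Cys4 by 0.79 ± 0.14 (edgeR adjusted p = 0.0238).

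No member had a response to Pam3Cys4 that was called 2-fold apart between cells with and without shRNA. When the stimulation ratio with shRNA was divided by the one without, 0 of 39 members were called higher (1.94% of all genes measured) and 0 lower (1.64%). At those shares a count of 0 among 39 genes says little, and there is no test of this ratio with 1 library per group. At 1.5-fold 1 was higher, Tfeb, and 3 were lower, Ctsc, Ctsl and Atp6v0d2. Of the 9857 genes measured, 711 were higher and 563 lower at that threshold, and the member counts are too small to set apart from those shares. The median of this log2 ratio was -0.17 for members and 0.02 for all genes measured. It was positive in 11 of 39 members (28.2%), against 53.1% of all genes measured.

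Members with and without CACGTG in the promoter window can be set side by side. With shRNA, 0 of the 10 with it were called higher in either state, against 5 unstimulated and 6 after Pam3Cys4 of the 22 without it. Over all genes the shares called higher were 7% and 9%, at which a count of 0 among 10 genes says little. The medians of the log2 ratio were 0.24 against 0.38 unstimulated and -0.01 against 0.32 after Pam3Cys4. The 10 spanned -0.01 to 0.73 unstimulated. After Pam3Cys4 stimulation, 0 of the 10 were called in either direction, and of the 22 without it 2 were higher and 1 was lower both with and without shRNA. For stimulation the shares of all genes called higher and lower were 6.3% and 3.53% with shRNA and 7.07% and 6.51% without. At those shares the counts among 10 and 22 genes say little. The medians of the log2 ratio, with CACGTG against without it, were -0.20 against 0.08 in cells with shRNA and 0.11 against 0.14 in cells without. These counts are small and are given as a description only; the 7 members with no window, Ctsb, Ctsh and Atp6v0d2 among them, enter neither side.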

How the data were processed

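Reads were 50 bases long and came from an Illumina kit for mRNA, per the labels' protocols. Per the submitters' processing notes, CASAVA 1.8, TopHat, HTSeq and the build NCBIM37 were used; which annotation and strand setting were chosen is not given in the sources used here. What the authors deposited are HTSeq read counts for each gene, with no normalization. Lines that name no gene held 32.5 to 34.4% of each table and were left out.

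The 39 members were matched by symbol, and 32642 of the 37681 gene IDs were matched to a name and an exon length, with GENCODE vM21. That annotation is of another build than the counts, so no coordinates were joined to them. Members and lists were chosen with earlier results of these data known. All members are named; of each of 7 lists of related genes, at most the 3 genes with the largest log2 ratio per comparison among those with at least 5 CPM could be named.

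Counts were scaled with TMM factors of 0.924 and 1.01 with shRNA, after Pam3Cys4 and unstimulated, and 0.972 and 1.10 without (edgeR 4.0.16, R 4.3.3). Ratios have exact conditional binomial 95% intervals, and the ratio of stimulation ratios has a delta-method interval where every library had 10 counts or more. The edgeR test took genes that reached 5 CPM in 2 or more libraries and had 1 residual and 3.76 prior degrees of freedom. Each SE after ± was worked back from that test, as the absolute log2 change divided by the square root of its F statistic. It does not measure a spread between replicates. The scripts were tested on simulated data. Alternatives were library totals, DESeq2 1.42.0 size factors and Wald test, other CPM minimums and a 1.5-fold threshold. Promoter sequences are RefSeq's, on GRCm38.p6.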

Additional observations from a re-analysis of the deposited data

Results flagged for a closer look

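Of the 39 members, 5 had log2 ratios of opposite sign in the 2 states of the other factor, beyond counting error and under all 3 scalings. The share of all genes that meet this rule was not counted, so the 5 cannot be set against it. With 1 library per group, none of these differences was tested. For Pam3Cys4 over unstimulated, Ctsl had -0.21 with shRNA and 0.51 without, a difference of -0.71, and Cd63 had -0.12 with shRNA and 0.29 without, a difference of -0.41. For shRNA over no shRNA, Ctsa had -0.03 after Pam3Cys4 and 0.24 unstimulated, a difference of -0.27. Gaa had -0.10 after Pam3Cys4 and 0.23 unstimulated, a difference of -0.33. Atp6v0d1, the common d form of the proton pump, had -0.31 after Pam3Cys4 and 0.23 unstimulated, a difference of -0.55. All 5 differences are negative, as they are for most members. The ratio of stimulation ratios was positive on the log2 scale in 11 of 39 members, against 53.1% of all genes measured. All 5 genes but Cd63 have CACGTG in the promoter window, as do 10 of the 32 members with a window. Both are given as description only.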

How the results depend on the processing

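Every library is the only one of its group, so no value has a replicate check, and intervals cover counting error only. No paired analysis was possible because no group has numbered replicates; the edgeR fit already compares each factor within the states of the other. Members with few reads, such as Ctsh with shRNA and Atp6v0d2, have the widest intervals.

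With library totals in place of TMM, members higher after Pam3Cys4 with shRNA numbered 1, as they did with DESeq2 size factors, since Sqstm1 then lay under 2-fold. Library totals also gave 2 members lower with shRNA after Pam3Cys4, Ctsh and Atp6v1h, and 7 members that fell with Pam3Cys4 in the edgeR test. Member median log2 ratios were then -0.16 and -0.0698 for stimulation with and without shRNA and 0.16 for shRNA unstimulated, and those of all genes -0.12, -0.19 and -0.10 for the same comparisons; 1265 genes fell with shRNA and 2045 with Pam3Cys4 in the edgeR test.

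At a 1.5-fold threshold, 2 members were lower after Pam3Cys4 with shRNA and 5 higher without; with shRNA, 11 were higher and 3 lower unstimulated and 3 lower after Pam3Cys4. For the ratio of stimulation ratios 1 was higher and 3 lower. Of all genes, higher and lower counts were 1301 and 1053 for stimulation with shRNA, 1455 and 1493 without, 1277 and 985 for shRNA unstimulated, 1654 and 1167 after Pam3Cys4, and 711 and 563 for the ratio of ratios.

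With no CPM minimum the same counts over all genes were 1289 and 892, 1332 and 1242, 1318 and 1482, 1610 and 1449, and 358 and 302. At 1 CPM, 526 genes were lower after Pam3Cys4 with shRNA, 791 lower with shRNA unstimulated and 893 after Pam3Cys4, and 313 higher and 255 lower in the ratio of ratios. With no minimum beyond 1 count, the edgeR test gave 2170 that rose and 1874 that fell with shRNA, and 2013 and 1857 with Pam3Cys4. The share of all genes with CACGTG was 4.92% within 150 bases before the start, and 12.9% among genes with at least 5 CPM, a background chosen after seeing the data. The cause of these shifts was not tested, beyond the numbers of genes that each minimum and threshold admits by construction. No called member changed direction under any of these settings.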
